A study of Homo sapiens with 5 samples.

Results

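Long noncoding RNA (lncRNA) genes make transcripts that are not translated, and 78 such gene names had a listed region in CLIP-Seq libraries of GFP-(GR)50 and its controls. They are the same-strand host genes of the regions that the deposited annotation classes as lncRNA. MALAT1 and NEAT1, the rRNA array on chromosome 21 and unplaced contigs were left out. The 78 names stand for 74 loci, because 4 loci carry 2 names, and they belong to 1396 gene names in all lists. Their 118 regions are part of 3147 listed regions, of which 2621 lie outside rRNA. At 1 of the double loci the second name, RCC1 beside SNHG3, is that of a protein-coding gene.

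The study pulled down GFP from HEK-293, an established line of human embryonic kidney cells, to find the RNA crosslinked to GFP-(GR)50, GFP fused to 50 glycine-arginine repeats. Poly-GR is translated from the expanded repeat in C9ORF72 that causes forms of ALS and FTD. Experiment 1 had a library of cells transfected with GFP and GFP-(GR)50 replicate 1, both at 0.04 units/ml RNase I. Experiment 2 had untransfected cells, cells transfected with GFP-(GP)10 (GFP joined to 10 repeats of glycine and proline) and GFP-(GR)50 replicate 2, all at 0.02 units/ml RNase I. All cells were crosslinked with ultraviolet light, all lysates were put on the same GFP-binding beads, and the controls gave RNA from the gel region chosen for the fusion. Untransfected cells make no GFP, so every region in that list is background of the method. GFP and the fusions were introduced by transfection, and each control is 1 library.

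Many lncRNAs stay in the nucleus, where they act on chromatin or serve as scaffolds for proteins. Others are mainly hosts whose introns or exons are cut into snoRNAs or microRNAs, and a few, such as the RNA subunits of RNase MRP and RNase P, are compact catalytic RNAs. The introns of lncRNA genes hold many Alu and other repeat elements, as do those of protein-coding genes.

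Sequences at the start of a pair of loci are shown. Sequence was at hand only for RefSeq windows around gene starts, so regions of LINC01170, AC010280.1 and RMRP are not printed. The first is the RefSeq window around the start of MIR663AHG, a microRNA host gene listed only with GFP-(GR)50. It spans chr20:26209184-26209483 (GRCh38.p14, minus strand), with 250 bases before and 50 after the start. Capitals mark the 190 bases inside the GFP-(GR)50 replicate 2 region that runs from 26209294 to 26209627.
MIR663AHG: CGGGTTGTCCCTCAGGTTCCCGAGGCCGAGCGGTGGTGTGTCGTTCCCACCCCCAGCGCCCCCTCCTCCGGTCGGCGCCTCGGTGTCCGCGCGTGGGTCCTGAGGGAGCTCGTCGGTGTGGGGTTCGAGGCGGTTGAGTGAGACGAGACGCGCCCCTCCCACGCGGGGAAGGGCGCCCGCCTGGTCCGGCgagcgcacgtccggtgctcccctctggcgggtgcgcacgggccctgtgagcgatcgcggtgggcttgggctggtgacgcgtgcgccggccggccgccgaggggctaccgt
The second is the first 50 bases of XIST, the RNA that coats and silences an X chromosome. It spans chrX:73852665-73852714 (GRCh38.p14, minus strand), and capitals mark the 30 bases inside a region of the GFP control. That region had only 5 unique reads. The XIST regions with the most reads lay beyond the printed bases, such as 561 to 817 bases after the start in GFP (21 reads) and 75 to 819 in untransfected cells (76 reads).
XIST: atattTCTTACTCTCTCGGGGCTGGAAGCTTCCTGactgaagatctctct
G and C made up 74.2% of the capital bases of MIR663AHG and 75.3% of the whole window. The median over 35116 RefSeq windows of the same length was 58.7%.

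Each list gives reads that map to one place (unique reads) and listed reads, which add multimapping reads scaled by the authors. Outside rRNA there were 5793 unique reads for GFP and 219 for GFP-(GR)50 replicate 1 in experiment 1. Experiment 2 had 8290 for untransfected cells, 1446 for GFP-(GP)10 and 4743 for GFP-(GR)50 replicate 2. Intervals are exact Clopper-Pearson 95% intervals and cover counting error only, which is large in GFP-(GR)50 replicate 1. No region has fewer than 5 listed reads, so a gene missing from a list is not a gene with 0 reads.

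The untransfected list, the longest of the 5, named the most lncRNA genes. Of the 78 names, 51 had a region in untransfected cells and 25 in GFP-(GR)50 replicate 2. The GFP list named 8, GFP-(GP)10 named 5 and GFP-(GR)50 replicate 1 named 3. Untransfected cells thus held 65.4% of the lncRNA names, beside 54.6% of all 1315 names outside rRNA. A single library held 70 of the 78, and for 46 (59.0%) that library was the untransfected one, beside 43.4% of all names. GFP-(GR)50 replicate 2 alone listed 17 (21.8%, beside 23.1% of all names) and GFP alone 6 (7.69%, beside 8.44%). GFP-(GP)10 alone listed 1 (1.28%, beside 5.55%), LINC00491, with 4 unique and 5.50 listed reads. Of the others, 4 were in 2 libraries, 3 were in 3 libraries and only XIST was in all 5. Both GFP-(GR)50 lists named XIST, RMRP and MIR663AHG.

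Genes seen in a single library had few reads. The 46 of untransfected cells ran from 5 to 13.2 listed reads with a median of 6, and 43 had under 10. The 17 of GFP-(GR)50 replicate 2 ran from 5 to 34.0 with a median of 5, and 14 had under 10. The 6 of GFP ran from 5 to 17.0, and 3 had under 10. Most of these genes thus lay close to the smallest value that a list can hold. Of all lncRNA regions, 86.4% in untransfected cells had under 10 listed reads, beside 83.5% of other regions outside rRNA. In GFP-(GR)50 replicate 2 it was 75.0% beside 80.3%, and in GFP 64.7% beside 40.3%.

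lncRNA regions made up 1.64% (0.339% to 4.72%) of the regions of GFP-(GR)50 replicate 1, 3 of 183, and 3.98% (2.73% to 5.57%) of those of replicate 2, 32 of 805. Among the controls, GFP had 3.60% (2.11% to 5.70%), untransfected cells 4.41% (3.37% to 5.65%) and GFP-(GP)10 2.01% (0.812% to 4.10%). The 5 intervals overlap. Both fusion libraries together averaged 2.81% ± 1.65 (SD, n = 2). Outside rRNA the share was 4.76% in both GFP-(GR)50 libraries, 4.74% in untransfected cells, 4.43% in GFP and 2.71% in GFP-(GP)10.

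By reads the order was different. Of listed reads outside rRNA, lncRNA held 4.45% (2.88% to 6.45%) with GFP-(GR)50 in experiment 1, where the GFP control had 1.40% (1.18% to 1.63%). In experiment 2 the fusion library had 8.57% (7.90% to 9.29%), untransfected cells had 4.99% (4.57% to 5.44%) and GFP-(GP)10 had 2.54% (1.91% to 3.36%). The GFP-(GR)50 mean was 6.51% ± 2.91 (SD, n = 2). The differences were 3.05, 3.58 and 6.03 percentage points, and in each the intervals of GFP-(GR)50 and its control do not meet.

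Those differences rest on few genes and on the denominator. Without LINC01170, left out after its value was seen, the difference between GFP-(GR)50 replicate 2 and untransfected cells was 0.0417 points and that from GFP-(GP)10 was 3.21 points. As a share of all listed reads, rRNA included, lncRNA was lower with GFP-(GR)50 in each comparison, by -0.454, -1.80 and -0.257 points. Unique reads alone gave 10.0% and 10.6% in the GFP-(GR)50 libraries (mean 10.3% ± 0.425, SD, n = 2), against 2.45% in GFP, 5.61% in untransfected cells and 3.25% in GFP-(GP)10. Between 87.3% and 94.9% of the listed reads of lncRNA regions were unique, against 36.4% to 82.7% for other regions outside rRNA.

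RMRP, the RNA of the RNase MRP enzyme that cuts the rRNA precursor, had 14 unique reads in the GFP control and 8 and 31 in replicates 1 and 2 of GFP-(GR)50. It was not listed in untransfected cells or GFP-(GP)10. Its share of unique reads outside rRNA was 3.65% (1.59% to 7.07%) in GFP-(GR)50 replicate 1, 0.654% (0.445% to 0.926%) in replicate 2 and 0.242% (0.132% to 0.405%) in GFP. The intervals of these 3 libraries do not meet, and replicate 2 is from another experiment than the other two.

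Each gene listed in both libraries of a comparison was tested with a two-sided Fisher's exact test on unique reads, adjusted by Benjamini-Hochberg over all names listed in both. The tests compare the reads of 2 libraries, not the conditions. RMRP was higher in GFP-(GR)50 replicate 1 than in GFP, with an odds ratio of 15.7 (6.495 to 37.7, exact adjusted p = 3.37e-06). With all unique reads as the denominator, rRNA included, its log2 odds ratio went from 3.97 to 1.16 and the call ended (exact adjusted p = 0.244). It was 1 of 2 lncRNA genes tested there, and over all names 33.3% were called higher and 3.33% lower. Those names include several with 0 unique reads in both libraries, such as SNORD3A, that could not be called. Among names with reads the shares are therefore higher. The call of RMRP therefore stands among many calls in the same direction.

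The regions of RMRP spanned the whole RNA or its 3′ part. RefSeq gives it 270 bases, on chromosome 9. The region of GFP covered 99.3% of them (35657752 to 35658020 in the list), that of GFP-(GR)50 replicate 2 covered 99.6%, and that of GFP-(GR)50 replicate 1 covered 65.9% and began 91 bases after the start. The deposited annotation gave these regions no exon or intron label.

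RPPH1, the RNA of RNase P, which trims the 5′ ends of tRNA precursors, was listed only in GFP-(GR)50 replicate 2. It had 20 and 5 unique reads in 2 regions on chromosome 14, of which the larger ran from 20343097 to 20343275. Together they were 0.527% (0.341% to 0.777%) of unique reads outside rRNA. RefSeq gives RPPH1 341 bases, of which the regions covered 52.5% and 14.1%. The same regions also carry the overlapping name AL355075.4, so this locus counts as 2 of the 78 names. RMRP and RPPH1 were the 2 listed members of a list of 9 compact structured RNAs.

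MIR663AHG was listed in both GFP-(GR)50 libraries and in no control. It had 9 unique and 12.2 listed reads in 1 region of GFP-(GR)50 replicate 1, and 38 unique reads in 4 regions of replicate 2. Its share of unique reads outside rRNA was 4.11% (1.90% to 7.66%) in replicate 1 and 0.801% (0.568% to 1.098%) in replicate 2. It was the only lncRNA gene listed with GFP-(GR)50 replicate 1 and not in GFP.

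The MIR663AHG region with the most reads lay before the RefSeq start of the gene and partly within the sequence printed above. In replicate 2 it ran from 394 to 61 bases before the start, of which the printed window holds 190 bases, and had 26 unique and 45.9 listed reads. The replicate 1 region ran from 272 to 70 bases before the start and lay wholly inside it. The other regions of replicate 2, within 852 bases after the start, had 9, 3 and 0 unique reads and 9.27, 7.17 and 6.91 listed reads. This locus is known to carry sequence related to the spacer of the rRNA precursor. The share of listed reads in rRNA moved with its listing, at 98.999% and 95.3% in the GFP-(GR)50 libraries and 55.8% to 73.9% in the controls. The precursor was not compared with the window, and the part of rRNA reads in the result was not tested.

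**Figure D1:**
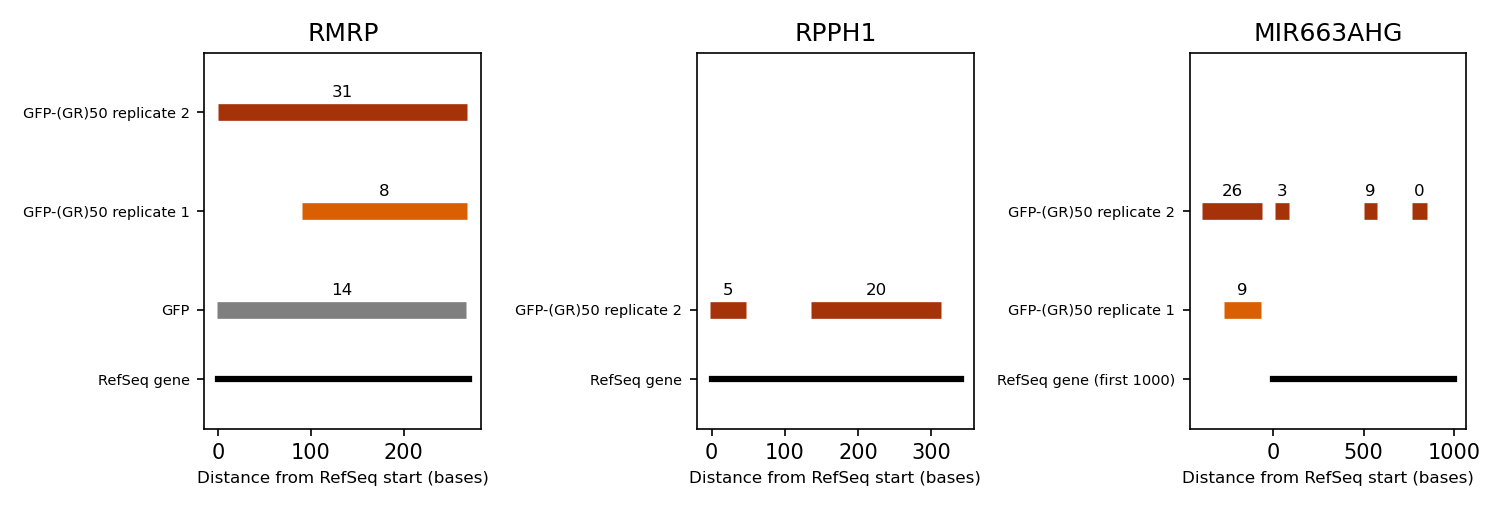
Listed regions of RMRP, RPPH1 and MIR663AHG by distance in bases from the RefSeq start, 1 row per library that lists the gene, with the unique reads of each region above its bar and the RefSeq gene as a black line (the first 1000 bases for MIR663AHG). RMRP regions follow the length of the RNA, while the largest MIR663AHG region, with 26 reads, lies before the start.

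The reads that a control would have had at the GFP-(GR)50 share of a gene were computed. At the share of GFP-(GR)50 replicate 1, MIR663AHG would have had 238 unique reads in GFP, or 35.0 where all unique reads are the denominator. At the shares of GFP-(GR)50 replicate 2, untransfected cells would have had 66.4 reads of MIR663AHG, 54.2 of RMRP and 43.7 of RPPH1. On all unique reads these were 35.4, 28.9 and 23.3, still above the smallest listed value of 5. In GFP-(GP)10 they would have been 11.6, 9.45 and 7.62 reads, or 6.27, 5.11 and 4.12 on all unique reads, which is at the limit of what that list could show. Library size and the list minimum largely set these values. XIST, with 5 reads in replicate 1, would have had 132 in GFP. All 20 genes listed with replicate 2 and not in untransfected cells came to at least 5 reads there, and 10 did on all unique reads. The genes were picked because GFP-(GR)50 listed them, so these values do not show that the controls lacked the RNA.

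XIST was the one lncRNA gene with a region in every library. In experiment 1 it had 77 unique reads in 10 regions with GFP and 5 in 1 region with GFP-(GR)50. In experiment 2 it had 143 in 12 regions of untransfected cells, 17 in 3 regions with GFP-(GP)10 and 52 in 5 regions with GFP-(GR)50. A further region of untransfected cells with 13 unique reads carries its name under the class of repeat elements and enters the test. As a share of unique reads outside rRNA, the lncRNA regions of XIST were lowest in GFP-(GR)50 replicate 2, at 1.096% (0.820% to 1.44%). They were highest in replicate 1, at 2.28% (0.745% to 5.25%), an interval from 5 reads that covers the shares of all other libraries. Between them lay GFP at 1.33% (1.05% to 1.66%), untransfected cells at 1.72% (1.46% to 2.03%) and GFP-(GP)10 at 1.18% (0.686% to 1.88%).

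XIST was lower in GFP-(GR)50 replicate 2 than in untransfected cells, with an odds ratio of 0.578 (0.421 to 0.793, exact adjusted p = 0.00496). Against GFP-(GP)10, which shares the GFP-(GR)50 library of that comparison, the odds ratio was 0.932 (0.537 to 1.62, exact adjusted p = 1.0). GFP-(GR)50 replicate 1 against GFP gave 1.73 (0.695 to 4.33, exact adjusted p = 0.482). That comparison turned on the setting. Matched by overlap of regions in place of gene name, the 5 reads were set against the 7 of a single GFP region, and XIST was called higher (log2 odds ratio 4.27, exact adjusted p = 0.000305). With all unique reads as the denominator it was called lower (log2 odds ratio -2.00, exact adjusted p = 0.00287), and the log2 odds ratio of replicate 2 against GFP-(GP)10 was -1.0 (exact adjusted p = 0.0370).

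Most XIST reads in regions of the lncRNA class, in each library but GFP-(GR)50 replicate 1, fell in the first 1000 bases. RefSeq gives the gene 32059. They were 42 of 77 reads in GFP (54.5%, 42.8% to 65.9%), 76 of 143 in untransfected cells (53.1%, 44.6% to 61.5%), 12 of 17 in GFP-(GP)10 (70.6%, 44.0% to 89.7%) and 35 of 52 in GFP-(GR)50 replicate 2 (67.3%, 52.9% to 79.7%). The 4 intervals overlap. These counts leave out the further region of untransfected cells with 13 unique reads. If it lies beyond the first 1000 bases, the share of untransfected cells is lower. In untransfected cells 1 region of 744 bp held all 76, while GFP had 4 regions there. This end of XIST holds the A-repeat, the part needed for silencing.

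Beyond it the regions of the lncRNA class were scattered, with 5 to 8 unique reads each. The only region of GFP-(GR)50 replicate 1 began 27192 bases after the start and had 5 reads, and GFP (7 reads) and untransfected cells (6 reads) had regions over the same place. GFP-(GR)50 replicate 2 had no region more than 8766 bases from the start. Untransfected cells had 9 of this class further than that, counting the one at 8795 to 8894 bases.

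**Figure D2:**
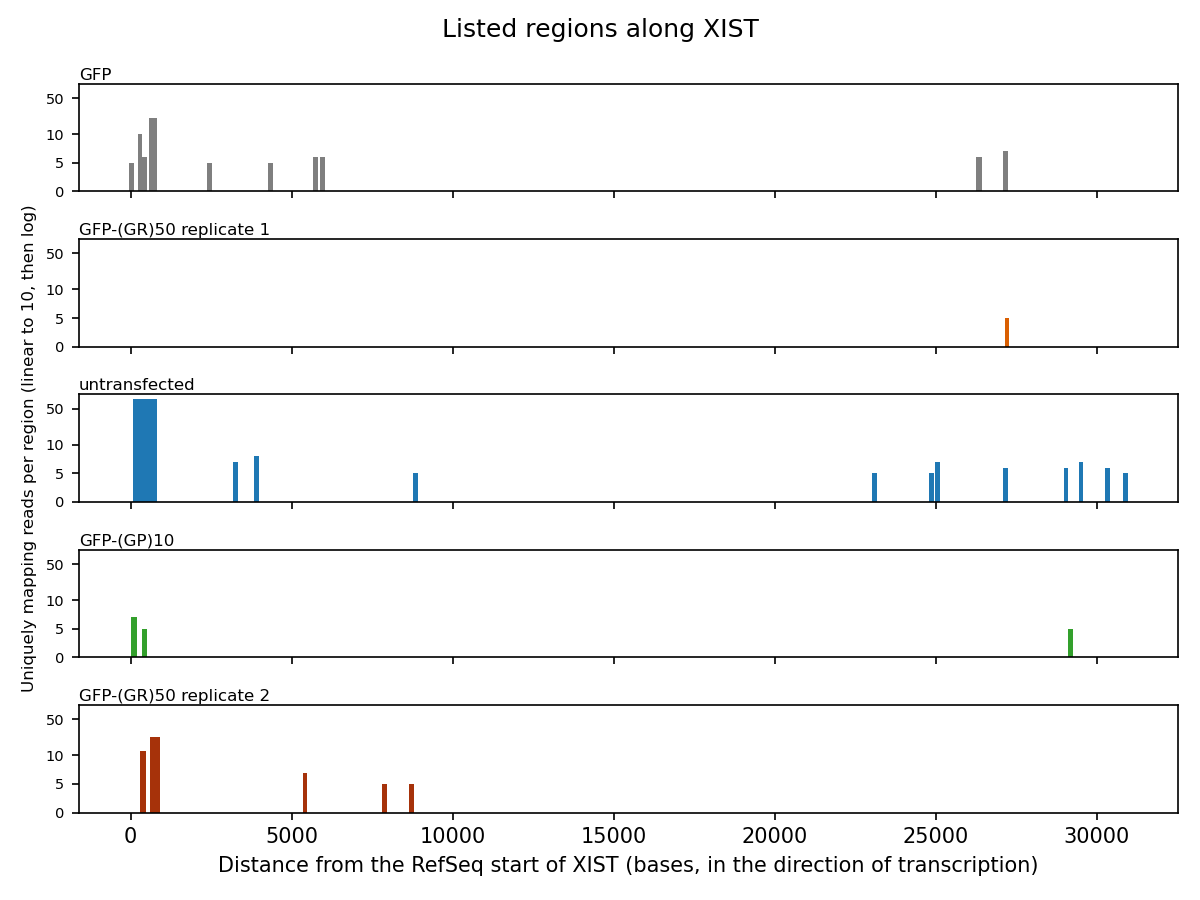
Unique reads of each listed XIST region of the lncRNA class (vertical axis, linear to 10 and logarithmic above) by distance in bases from the RefSeq start, 1 panel per library, with bars drawn at least 150 bases wide. In 4 of 5 libraries the highest bars stand in the first 1000 bases, with 76 reads in 1 region of untransfected cells.

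LINC01170, a long intergenic gene on chromosome 5, held the most reads of any lncRNA gene in GFP-(GR)50 replicate 2. A region of 41 bp in an intron (124235488 to 124235529) had 222 unique and 225 listed reads in GFP-(GR)50 replicate 2. The GFP-(GP)10 list had 14 unique reads over 38 bp at the same start. No other list named the gene. Its share of unique reads outside rRNA was 4.68% with GFP-(GR)50 and 0.968% with GFP-(GP)10, an odds ratio of 5.02 (2.92 to 8.65, exact adjusted p = 1.04e-11). With all unique reads as the denominator, the log2 odds ratio fell from 2.33 to 1.41 (exact adjusted p = 0.000399). At the GFP-(GR)50 share untransfected cells would have had 388 unique reads, or 207 on all unique reads.

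AC010280.1, a clone-named gene on the same chromosome, had 34 unique reads in a single intron region of 32 bp (68557096 to 68557128) in GFP-(GR)50 replicate 2, 0.717% of unique reads outside rRNA. No other library listed it. Untransfected cells would have had 59.4 reads at that share and GFP-(GP)10 10.4. The regions of LINC01170 and AC010280.1 both lie opposite a low-complexity repeat, and neither gene was listed in GFP-(GR)50 replicate 1. At the replicate 2 shares, replicate 1 would have had 10.3 unique reads of LINC01170 outside rRNA, or 38.6 on all unique reads, and 1.57 of AC010280.1, or 5.91. The lists of the fusion libraries thus differ at LINC01170, which was picked for its many reads in replicate 2. For AC010280.1 the answer turns on the denominator. The replicates also differ in experiment and RNase I amount, and the cause was not tested.

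The other intronic genes seen in more than 1 library were clone-named or LINC genes. AL138720.1 had 17 unique reads in untransfected cells and 6 each in the GFP-(GP)10 and GFP-(GR)50 libraries of that experiment. AC090809.1 had 27, 6 and 10. Their shares were 0.127% and 0.211% with GFP-(GR)50, 0.205% and 0.326% in untransfected cells and 0.415% each in GFP-(GP)10, and neither difference passed the test (exact adjusted p = 0.892 and 0.834 against untransfected cells, 0.0896 and 0.367 against GFP-(GP)10). On all unique reads AC090809.1 passed as lower against both controls (exact adjusted p = 0.0288 and 0.0324), and AL138720.1 against GFP-(GP)10 (exact adjusted p = 0.00767). AC013391.2 had 16 unique reads in untransfected cells and 6 in GFP-(GR)50 replicate 2, and LINC01804 had 8 and 4. Their odds ratios were 0.655 (0.256 to 1.68) and 0.874 (0.263 to 2.90), both with an exact adjusted p of 1.0.

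Regions of these genes came at nearly the same place in each library. Over LINC01170 and those 4 genes, 9 pairs of regions from different libraries differed by at most 12 bp at the lower coordinate and 3 bp at the upper one. The 3 genes with other shared regions were XIST, RMRP and MIR663AHG. Pairs of XIST regions differed by up to 633 and 521 bp. RMRP differed by at most 1 bp at the lower coordinate and 92 bp at the upper one, and MIR663AHG by 9 and 122 bp.

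**Figure D3:**
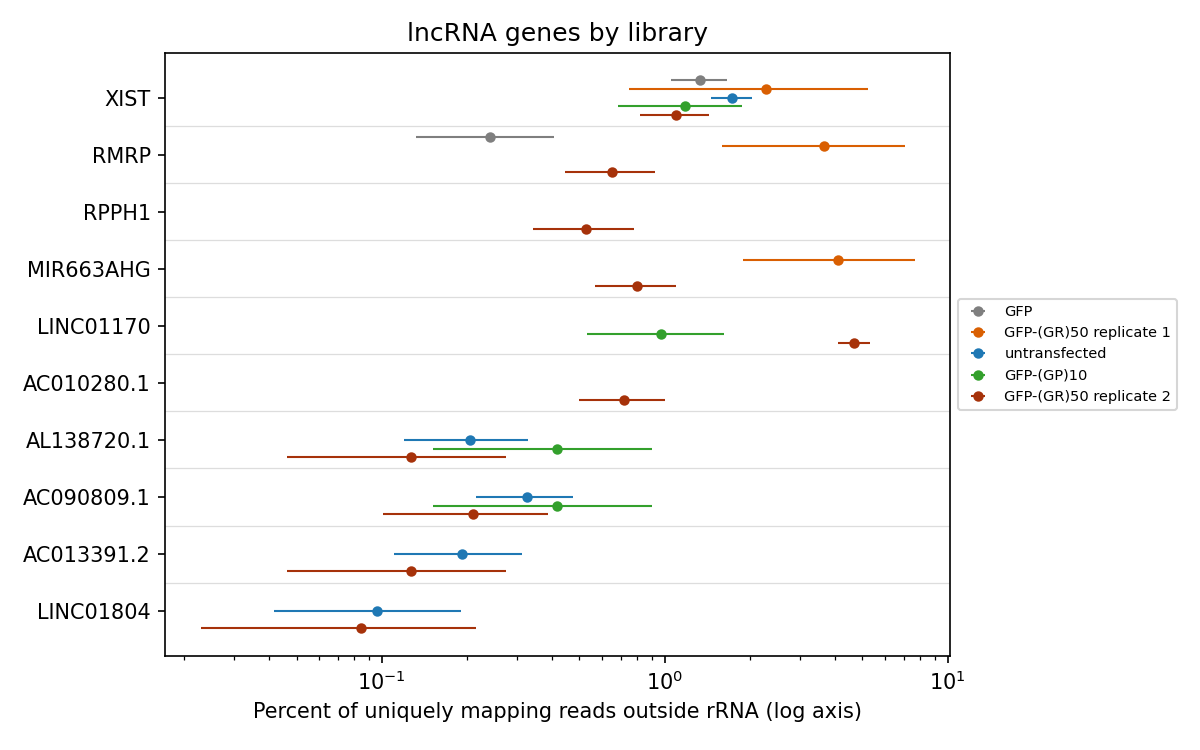
Share of unique reads outside rRNA (percent, logarithmic axis) for 10 lncRNA genes, with 1 point per library that lists the gene and its exact 95% interval for counting error. XIST has a point in all 5 libraries, LINC01170 stands at 4.68% in GFP-(GR)50 replicate 2, and the lower 4 genes overlap between libraries.

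Over all 5 genes listed in both GFP-(GR)50 replicate 2 and untransfected cells, 0 were called higher and XIST was called lower. Over all names 11.3% were called higher and 0.87% lower, where some names had 0 unique reads in both libraries and could not be called. Against GFP-(GP)10, 1 of 4 was called higher, LINC01170, and 0 lower, where 4.62% of all names were higher and 29.2% lower. RMRP, MIR663AHG, RPPH1 and AC010280.1 are not in these tests because the controls of experiment 2 did not list them.

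Genes listed with GFP-(GR)50 and not in the control were counted beside the same count over all names. For GFP-(GR)50 replicate 1 against GFP it was 1 of 9 lncRNA names listed in either (11.1%), beside 12.3% of all names. For GFP-(GR)50 replicate 2 against untransfected cells it was 20 of 71 (28.2%), beside 34.2%. Against GFP-(GP)10 it was 21 of 26 (80.8%), beside 70.4%. The last 2 comparisons share the GFP-(GR)50 library. In the other direction, 6 of 9 lncRNA names (66.7%) were in GFP and not in GFP-(GR)50 replicate 1, beside 76.5% of all names. Untransfected cells had 46 of 71 (64.8%) that replicate 2 lacked, beside 55.3%, and GFP-(GP)10 had 1 of 26 (3.85%), beside 18.8%. No test was made of these shares.

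Apart from MIR663AHG, the host genes of small RNAs had 5 to 7 unique reads each. SNHG7 had 7 unique reads and SNHG29 had 5 in GFP-(GR)50 replicate 2, and SNHG3 had 5 in untransfected cells, 3 of 19 snoRNA host genes. MIR17HG, host of the miR-17-92 cluster, had 5 unique reads in an exon in GFP-(GR)50 replicate 2. MIR222HG had 5 in an intron in untransfected cells. With MIR663AHG these were 3 of a list of 12 microRNA host genes. MIR3659HG and MIR4713HG, microRNA hosts by name outside that list, had 6 and 5 unique reads in introns in untransfected cells and were in no other library. Lists of 11 nuclear-retained lncRNAs such as TUG1, 12 of chromatin and imprinting such as KCNQ1OT1 and H19, and 8 cytoplasmic ones such as NORAD had no listed member. XIST, described by itself above, was in none of these lists. MALAT1 and NEAT1, which had 19 listed regions, were left out from the start. The lists thus do not show that chromatin or nuclear-retained lncRNAs were absent.

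By name, 39 of the 78 genes were known only by a clone name, 15 were LINC genes, 10 were antisense genes and 8 were host genes. In GFP the highest intronic ones were LINC00621 with 17 unique reads, AL021918.3 with 10, and NIFK-AS1 and LINC00393 with 9 each. The regions of LINC00621, NIFK-AS1 and LINC00393 were 22, 21 and 21 bp wide and lay opposite an LTR element, and that of AL021918.3 was 96 bp wide with no repeat opposite. None of the 4 was listed elsewhere.

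Most lncRNA regions of untransfected cells lay in introns. They were 43 of 59 (72.9%, 59.7% to 83.6%), against 14 of 32 (43.8%, 26.4% to 62.3%) in GFP-(GR)50 replicate 2, 4 of 7 in GFP-(GP)10, 6 of 17 in GFP and 0 of 3 in GFP-(GR)50 replicate 1. Intronic regions were narrower, with a median of 50.0 bp against 94.0 bp for the others in untransfected cells and 45.5 bp against 98.0 bp in GFP-(GR)50 replicate 2. Exon-only regions numbered 0 to 5 per library.

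Repeats on the opposite strand were most frequent in untransfected cells, for lncRNA and for other regions. In untransfected cells 48 of 59 lncRNA regions (81.4%) lay opposite a repeat element, beside 75.4% of other regions outside rRNA. In GFP-(GR)50 replicate 2 it was 14 of 32 (43.8%), beside 47.2%, and in GFP-(GP)10 5 of 7, beside 52.6%. In experiment 1 it was 5 of 17 (29.4%) in GFP, beside 5.99%, and 1 of 3 in GFP-(GR)50 replicate 1, beside 10.0%. The sets differ in kind: in GFP 6 of 17 lncRNA regions were intronic, while 20 of 367 other regions lay in introns of protein-coding genes. Short interspersed elements (SINE, the class of Alu) stood opposite 24 of the 43 intronic regions of untransfected cells (55.8%), while they stood opposite 70.9% of its regions in introns of protein-coding genes.

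**Figure D4:**
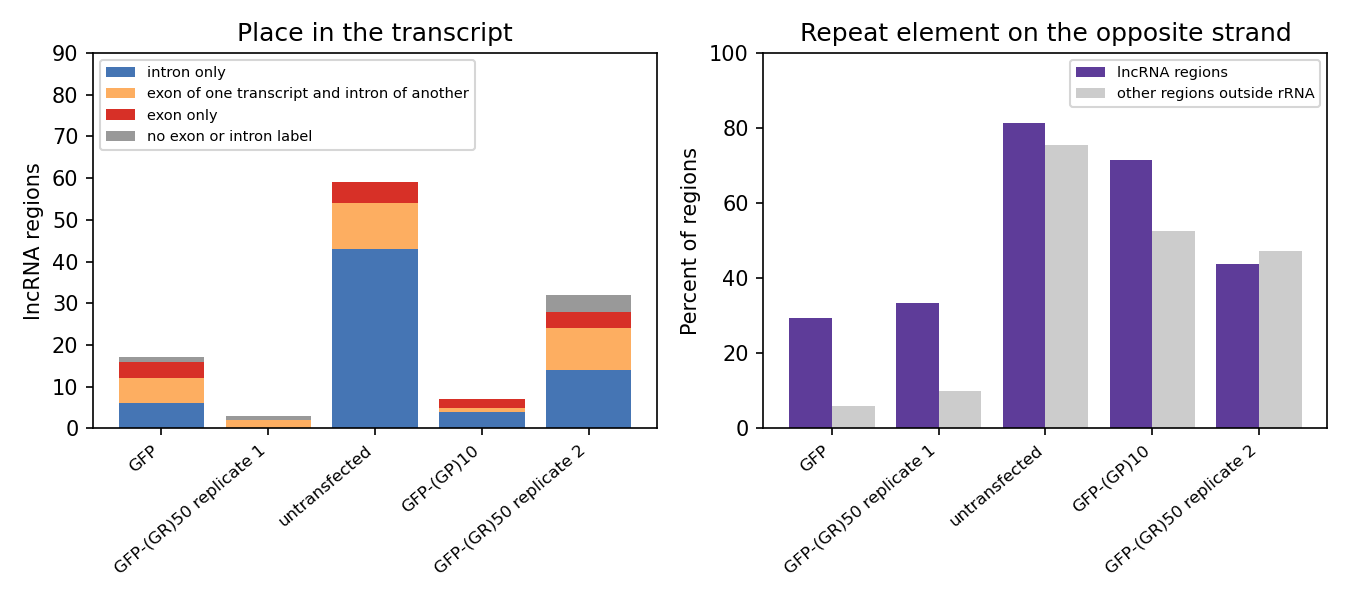
Left, the number of lncRNA regions per library by place in the transcript. Right, the percent of lncRNA regions and of other regions outside rRNA that lie opposite a repeat element; untransfected cells have the most intronic regions, 43 of 59, and the highest share opposite a repeat, 81.4%.

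The lncRNA regions were mostly on the minus strand, 98 of 118 (83.1%), and 77.0% without XIST, while other regions outside rRNA were evenly split (49.5%). The way regions were classed moves with this. Same-strand simple repeats were annotated on the plus strand alone, 423 of 423, and regions inside them can be classed as repeat elements. Of 38 regions with a lncRNA type, no coding type and the class of repeat elements, 35 were on the plus strand. With those regions of genes other than MALAT1 and NEAT1 counted, 66.0% of 153 were on the minus strand. The lncRNA class thus leaves out part of the plus strand. By library such regions numbered 23 in untransfected cells, 8 in GFP-(GR)50 replicate 2, 3 in GFP-(GP)10, 1 in GFP and 0 in GFP-(GR)50 replicate 1.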

How the data were processed

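Regions with strand and annotation were used as deposited, 1 list per library. Reads were processed with featureCounts 2.0.2, bedtools 2.30.0, UMI-tools 1.1.2 and Novoalign 4.03.03 on GRCh38.p13 (hg38), per the submitters' processing notes, and no source used here names the region caller. Per the file headers, unique reads are a count, with 6 values that are not whole in GFP-(GR)50 replicate 2, taken as an expected count in that list. The deposited listed reads are an expected count (estimated count) in which the authors scaled multimapping reads. Total depth is not given, and whether coordinates count from 0 or 1 is not given either.

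rRNA meant regions annotated as rRNA or named for 45S, 28S, 18S, 5.8S or 5S rRNA or their pseudogenes, unplaced contigs, and chromosome 21 from 8000000 to 9100000. The 5.8S and 5S names were added after values had been seen; the narrower definition is among the alternatives. Members and gene lists were chosen with earlier results of these data known. Named were genes in both GFP-(GR)50 lists, genes in at least 2 libraries, the 5 with most listed reads per library, genes that passed the test, and up to 4 per gene list. Tests used SciPy 1.17.1 with a threshold of 0.05 and gave odds ratios with Woolf 95% intervals. They were checked on simulated reads that had planted changes but no list minimum and no other variation between libraries. That check therefore does not cover the effects of the list minimum or of such variation. RefSeq held symbols for 38 of the 78 names and promoter windows for 27.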

Additional observations from a re-analysis of the deposited data

How the results depend on the processing

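Alternatives changed 1 choice at a time. Differences in the lncRNA share of regions stayed within their counting error but 2 changed sign: against GFP from -1.96 to 0.335 points outside rRNA, and against untransfected cells from -0.431 to 0.0191 outside rRNA, 0.385 with at least 10 reads and 0.908 without regions opposite a repeat. Single shares moved further, to 7.17% in GFP with at least 5 unique reads and 2.85% in untransfected cells without regions opposite a repeat. The difference in listed-read share (3.05, 3.58 and 6.03 points for GFP-(GR)50 replicate 1 against GFP and replicate 2 against untransfected cells and GFP-(GP)10) was 7.59, 5.04 and 7.40 with unique reads, -0.454, -1.80 and -0.257 over all listed reads, and 7.34 and 10.6 in experiment 2 with at least 10 listed reads. Without LINC01170 it was 0.0417 and 3.21. With the narrower rRNA definition it was 2.89, 3.51 and 5.96, and the same calls were made. The GFP-(GR)50 means without either replicate ran from 1.64% to 3.98% of regions and from 4.45% to 8.57% of reads. Genes listed with GFP-(GR)50 replicate 2 and not in the control numbered 6 and 5 with at least 10 reads, and 5 against GFP-(GP)10 where at least 5 reads were expected, a count that library size and the list minimum largely set. Called genes numbered 2 against GFP with matching by overlap of 1 bp or by a share of the shorter region (XIST then 4.27), and 2 and 4 in experiment 2 over all unique reads. XIST against GFP turned to -2.00 over all unique reads. With XIST regions of the lncRNA class alone, its log2 odds ratio against untransfected cells was -0.66 (exact adjusted p = 0.0353). LINC01170, XIST and narrower-rRNA alternatives were chosen after seeing the data. The cause was not tested. No paired analysis was possible because the controls have 1 library each.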
